A study of Mus musculus with 6 samples.

Results

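The 10 genes described here encode enzymes that build the head groups of membrane phospholipids: *Chka*, *Chkb*, *Etnk1*, *Pcyt1a*, *Pcyt2*, *Chpt1*, *Cept1*, *Pemt*, *Ptdss1* and *Ptdss2*. The list was set by gene name and not by a threshold on measured values, with earlier results of these data known, and all 10 were found among the 49315 genes counted. The counts came from F4/80-positive cells sorted from the liver, labelled as Kupffer cells (its resident macrophages), of 3 WT and 3 Lpcat3 KOMac mice, with 1 RNA library per mouse. All mice were on a C57BL/6N background, carried the floxed *Lpcat3* allele on both chromosomes and were fed, from young adulthood, a high-fat diet with 60% fat for 16 weeks. WT mice lacked Cre, and Lpcat3 KOMac mice carried 1 *LysMCre* allele, which is active in myeloid cells and leaves part of *Lpcat3* intact in macrophages. The comparison asks whether the genes that make phospholipids are expressed differently when *Lpcat3*, which remodels the acyl chains of finished phospholipids, is reduced.

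Phosphatidylcholine and phosphatidylethanolamine are made in the Kennedy pathway: choline or ethanolamine is phosphorylated, activated with CTP, and joined to diacylglycerol. A separate route, in which the methyltransferase PEMT turns phosphatidylethanolamine into phosphatidylcholine, is known mainly from hepatocytes. Phosphatidylserine is made by exchange of the head group of these lipids for serine. LPCAT3 acts after these steps, placing polyunsaturated fatty acids at the sn-2 position.

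No genotype difference was detected in any of the 10 genes, but their levels across mice fell into contrasting patterns. *Chka*, *Chkb*, *Etnk1*, *Pcyt1a*, *Cept1*, *Ptdss1* and *Ptdss2* were nearly even, with a highest mouse between 1.13 and 1.43 times the lowest. *Pemt*, *Chpt1* and *Pcyt2* ranged 15-fold, 8.92-fold and 4.7-fold across the same 6 libraries, with WT mouse 1 highest for each. Across all 16134 genes tested the median of this ratio was 1.61. In that ranking by range, 4% of genes tested spread more widely than *Pemt*, 7.1% more than *Chpt1*, 12.6% more than *Pcyt2* and 96.9% more than *Etnk1*.

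The genomic sequence around a RefSeq start of 3 of these genes is shown because *Pemt* and *Chpt1* varied together between mice while *Etnk1* was the most even. RefSeq windows of 300 bases (GRCm38.p6), from 250 bases before to 50 after a transcription start, were found for 8 of the 10 genes. Capitals mark GC boxes (GGGCGG or its complement CCGCCC) and CCAAT boxes (CCAAT or ATTGG), and each window is written 5′ to 3′ on the strand of its gene.
*Pemt*, chr11:60040139-60040438, minus strand: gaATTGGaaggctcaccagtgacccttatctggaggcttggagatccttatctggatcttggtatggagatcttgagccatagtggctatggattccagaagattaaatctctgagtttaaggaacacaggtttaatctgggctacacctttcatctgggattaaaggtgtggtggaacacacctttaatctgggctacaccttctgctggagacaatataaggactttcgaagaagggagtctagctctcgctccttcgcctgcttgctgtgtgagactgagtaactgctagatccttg
*Chpt1*, chr10:88503921-88504220, minus strand: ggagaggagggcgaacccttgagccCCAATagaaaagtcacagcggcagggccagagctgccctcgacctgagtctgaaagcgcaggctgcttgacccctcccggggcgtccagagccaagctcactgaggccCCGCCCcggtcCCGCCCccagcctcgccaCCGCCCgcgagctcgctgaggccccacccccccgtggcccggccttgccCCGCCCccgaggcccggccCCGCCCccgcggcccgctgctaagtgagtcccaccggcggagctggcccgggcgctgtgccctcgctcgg
*Etnk1*, chr6:143166980-143167279, plus strand: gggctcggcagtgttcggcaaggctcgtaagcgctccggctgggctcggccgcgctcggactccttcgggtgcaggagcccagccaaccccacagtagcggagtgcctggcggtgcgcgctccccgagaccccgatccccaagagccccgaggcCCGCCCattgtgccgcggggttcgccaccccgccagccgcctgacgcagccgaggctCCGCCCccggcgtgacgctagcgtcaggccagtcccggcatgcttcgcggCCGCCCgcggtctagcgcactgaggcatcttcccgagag

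The *Pemt* window was 46.3% G and C with 3 CpG dinucleotides, while that of *Chpt1* was 75.3% with 29 and that of *Etnk1* 73.7% with 38. Over 32817 RefSeq windows the median was 52.7% with 7 CpG dinucleotides. The *Chpt1* window held 5 GC boxes, the *Etnk1* window 3 and the *Pemt* window 0, and 35.6% of all windows held at least 1. The CCAAT box was present once in the windows of *Pemt* and *Chpt1* and in 37.4% of all windows. Letters of the TATA box (TATAAA, 13.6% of windows) or of the consensus of the hepatocyte factor HNF4 (CAAAGTCCA, 0.475%), searched on both strands, were in none of the 3 windows shown. RefSeq gives *Pemt* a second start (window chr11:60036956-60037255, minus strand, not printed). That window was 51.7% G and C with 2 CpG dinucleotides and held 0 GC boxes and 0 CCAAT boxes. The *Pemt* gene as counted reaches to base 60046489 on the minus strand. Both *Pemt* windows therefore lie inside it, and the sequence before its outermost start was not examined. The windows of *Pemt* (at either RefSeq start) and *Chpt1* were of unlike base composition, and those of *Chpt1* and *Etnk1* of like composition. These 3 genes were picked after their levels were seen. Windows of the even genes also differed, with 51.7% G and C for *Chkb* and 68.7% for *Chka*. Whether base composition goes with the levels was not tested.

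Total counts per library lay between 44954224 and 71392812, and the lowest count of any of the 10 genes was 240 (*Pemt* in WT mouse 3), so the spread between mice was larger than counting error. TMM-normalized CPM, counts scaled for library size and composition, is the unit of the levels given. A log2 fold change compares Lpcat3 KOMac with WT and comes from the quasi-likelihood test of edgeR, with p-values adjusted over all genes tested (Benjamini-Hochberg). The targeted gene *Lpcat3* was at 85, 66.2 and 61.2 CPM in WT animals 1 to 3 and at 19.5, 33.3 and 19.4 CPM in Lpcat3 KOMac mice 1 to 3, with every Lpcat3 KOMac mouse below every WT mouse (log2 fold change -1.56, standard error 0.26). Its adjusted p was 1 in edgeR and 0.00431 in DESeq2. Transcripts of 8 hepatocyte genes were present in every library, and their summed level was 23700, 2150 and 1910 CPM in WT animals 1 to 3 and 5270, 14400 and 5080 CPM in Lpcat3 KOMac mice 1 to 3. The 6 Kupffer cell markers summed to between 24900 and 34000 CPM in WT and between 18900 and 27200 CPM in Lpcat3 KOMac mice, with the lowest sum in Lpcat3 KOMac mouse 2. This sum ranged 1.8-fold over the mice, but the mean log2 level of the same markers ranged 3.19-fold. Of these markers, *Marco*, named here after its value was seen, was at 148 CPM in Lpcat3 KOMac mouse 2 and at 3170 CPM in WT mouse 2. The other Kupffer cell markers are not given singly.

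**Figure D1:**
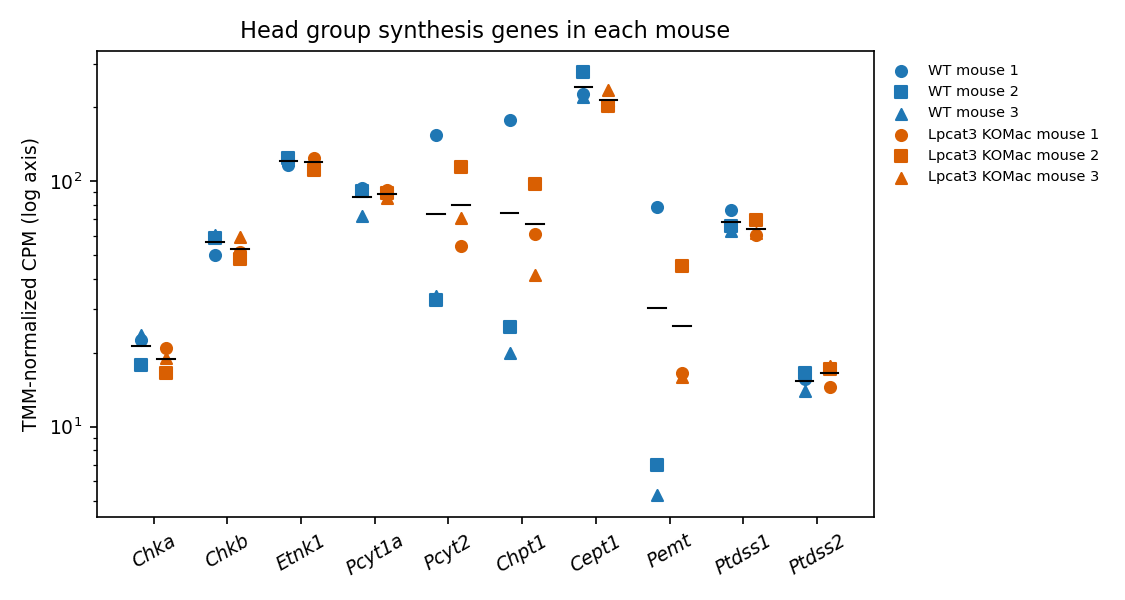
Levels of the 10 genes in TMM-normalized CPM on a log axis, with 1 point per mouse (blue for WT, orange for Lpcat3 KOMac, symbol for the mouse number) and black bars for the mean of each genotype. *Pemt*, *Chpt1* and *Pcyt2* spread widely within both genotypes, from 5.25 to 78.6 CPM for *Pemt*, while *Etnk1* stayed between 111 and 124 CPM.

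The choline and ethanolamine kinases carry out the first step of the Kennedy pathway. *Etnk1* (ENSMUSG00000030275, chromosome 6, 143167221 to 143232307, plus strand), the ethanolamine kinase, was at 116, 124 and 122 CPM in WT animals 1 to 3 and at 124, 111 and 123 CPM in Lpcat3 KOMac mice 1 to 3. The genotypes overlapped fully, with means of 121 ± 4.27 CPM and 119 ± 7.53 CPM (SD, n = 3 each) and a log2 fold change of -0.02 (95% interval -0.22 to 0.18). *Chkb* (ENSMUSG00000022617, chromosome 15, 89416405 to 89429908, minus strand), a choline kinase that also accepts ethanolamine, was at 50.2, 58.6 and 60.5 CPM in WT and at 51.4, 48 and 59.4 CPM in Lpcat3 KOMac mice 1 to 3. Both genotypes covered nearly the same range, and the log2 fold change was -0.09 (95% interval -0.39 to 0.20). *Chka* (ENSMUSG00000024843, chromosome 19, 3851773 to 3894369, plus strand), the other choline kinase, was at 22.6, 17.9 and 23.6 CPM in WT and at 20.9, 16.5 and 19.1 CPM in Lpcat3 KOMac mice 1 to 3. Its lowest mouse was Lpcat3 KOMac mouse 2, but WT mouse 2 lay below 2 of the Lpcat3 KOMac mice, and the log2 fold change was -0.18 (95% interval -0.56 to 0.19). *Chkb* shares 2744 of its 5805 exonic bases with *Cpt1b* on the same strand, which had at most 48 counts in any library, and reads in shared exons may not have been counted for either gene.

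The CTP-dependent transferases form the CDP-activated head groups, the regulated step of the pathway. *Pcyt1a* (ENSMUSG00000005615, chromosome 16, 32430921 to 32475070, plus strand), the choline enzyme, was at 93.9, 91 and 72.2 CPM in WT and at 91.5, 89.5 and 85.2 CPM in Lpcat3 KOMac mice 1 to 3. WT mouse 3 was the lowest and the other 5 mice lay close together, with a log2 fold change of 0.05 (95% interval -0.24 to 0.34). *Pcyt2* (ENSMUSG00000025137, chromosome 11, 120610087 to 120617936, minus strand), the ethanolamine enzyme, was at 154, 32.8 and 34 CPM in WT animals 1 to 3 and at 54.6, 114 and 70.6 CPM in Lpcat3 KOMac mice 1 to 3. Here WT held both the highest mouse and the 2 lowest, so the means of 73.6 ± 69.6 CPM and 79.8 ± 30.8 CPM (SD, n = 3 each) differed by far less than their spread. The log2 fold change of *Pcyt2* was 0.12, with a 95% interval from -1.65 to 1.88.

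The last step joins the activated head group to diacylglycerol. *Cept1* (ENSMUSG00000040774, chromosome 3, 106502260 to 106547802, minus strand), the enzyme that makes both phosphatidylcholine and phosphatidylethanolamine, was at 226, 278 and 220 CPM in WT and at 202, 202 and 234 CPM in Lpcat3 KOMac mice 1 to 3. Its mean was 241 ± 31.9 CPM in WT and 213 ± 18.3 CPM in Lpcat3 KOMac cells (SD, n = 3 each), with 1 Lpcat3 KOMac mouse above 2 WT mice. The log2 fold change was -0.18 (95% interval -0.49 to 0.13), which leaves room for a fall of up to 0.49 but not for a 2-fold change in either direction. *Chpt1* (ENSMUSG00000060002, chromosome 10, 88452745 to 88504073, minus strand), the choline phosphotransferase, was at 177, 25.5 and 19.9 CPM in WT and at 60.8, 97.5 and 41.4 CPM in Lpcat3 KOMac mice 1 to 3. As with *Pcyt2*, WT mouse 1 was the highest of the 6 and the other WT mice the lowest, and the log2 fold change of -0.16 had a 95% interval from -2.47 to 2.16. *Cept1* shares 771 of its 3116 exonic bases with *Dennd2d* on the other strand (at most 1116 counts), and the library kit does not mark strand.

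*Pemt* (ENSMUSG00000000301, chromosome 11, 59970614 to 60046489, minus strand), the methyltransferase, was at 78.6, 6.99 and 5.25 CPM in WT animals 1 to 3 and at 16.6, 45 and 16 CPM in Lpcat3 KOMac mice 1 to 3. WT mouse 1 stood highest, followed by Lpcat3 KOMac mouse 2, and the 2 remaining WT mice were the lowest of all. Means were 30.3 ± 41.8 CPM in WT and 25.8 ± 16.6 CPM in Lpcat3 KOMac cells (SD, n = 3 each). The edgeR log2 fold change was -0.23 (95% interval -3.11 to 2.65), while the difference of the mean log2 CPM had the other sign, at 0.68 (exact permutation test, two-sided p = 0.6).

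The phosphatidylserine synthases exchange head groups for serine. *Ptdss1* (ENSMUSG00000021518, chromosome 13, 66932830 to 66998401, plus strand), which uses phosphatidylcholine, was at 76.2, 65.9 and 62.4 CPM in WT and at 60.4, 69.4 and 61.3 CPM in Lpcat3 KOMac mice 1 to 3. Lpcat3 KOMac mouse 2 lay above 2 WT mice, and the log2 fold change was -0.10 (95% interval -0.37 to 0.17). *Ptdss2* (ENSMUSG00000025495, chromosome 7, 141122382 to 141157606, plus strand), which uses phosphatidylethanolamine, was at 15.7, 16.5 and 14 CPM in WT and at 14.5, 17.2 and 17.7 CPM in Lpcat3 KOMac mice 1 to 3. Its log2 fold change was 0.10 (95% interval -0.21 to 0.41), and 1 Lpcat3 KOMac mouse lay between the WT mice. *Ptdss1* shares 229 of its 3424 exonic bases with *Mterf3* on the other strand (at most 1330 counts).

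Of the 10 genes, 0 had an adjusted p-value under 0.05 in edgeR, where 0.0% of the 16134 genes tested did, and all 10 passed the filter on low counts. At an unadjusted p-value under 0.05 there were 0 of 10 genes, against 2.63% of all genes tested. DESeq2, which gave no p-value for *Pemt*, called 0 of the other 9 and 0.0733% of the genes it tested. The genotypes overlapped for all 10 genes, where 7.49% of genes tested did not overlap (5.2% lower and 2.29% higher in Lpcat3 KOMac cells). Exact permutation tests of the single genes gave two-sided p-values from 0.3 to 0.9, in a design of 3 mice against 3 that cannot go below 0.1. The edgeR log2 fold change was above 0 for 3 genes and below 0 for 7, with a median of -0.10 beside -0.04 for all genes tested. This split depends on the measure: by the difference of mean log2 CPM, *Pemt* (0.68) and *Chpt1* (0.48) were above 0. For the 7 even genes the 95% intervals lay between -0.56 and 0.41. For *Pemt*, *Chpt1* and *Pcyt2* the direction turned when single mice were left out (without WT mouse 1, *Pemt* was at 2.08 and *Chpt1* at 1.56 on the log2 scale, and without WT mouse 2 *Pcyt2* was at -0.24). Each of their intervals took in a 2-fold change in both directions, so that a genotype difference of that size was not detectable with 3 mice against 3.

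**Figure D2:**
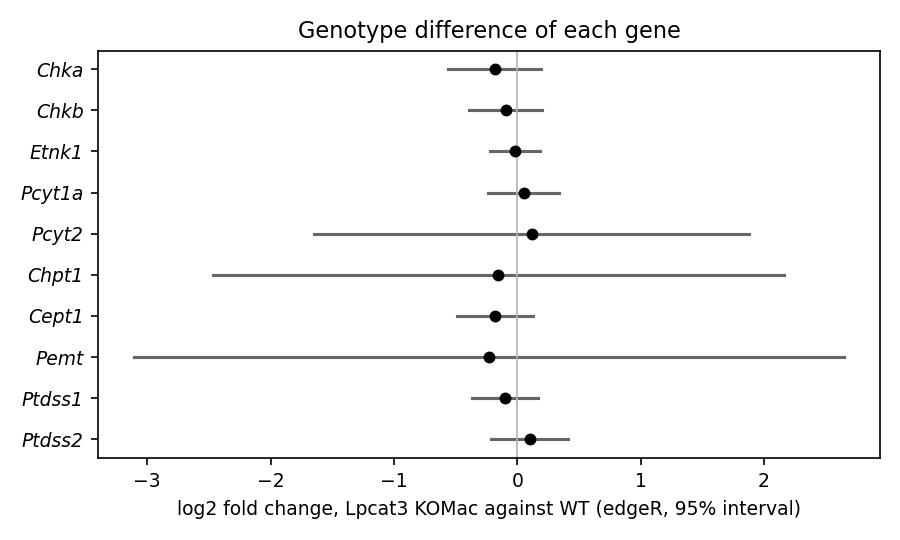
Log2 fold change of each of the 10 genes, Lpcat3 KOMac against WT, from edgeR (points) with its 95% interval (lines). All 10 intervals include 0, and those of *Pemt* (-3.11 to 2.65), *Chpt1* and *Pcyt2* are much wider than the rest.

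The libraries in which *Pemt*, *Chpt1* and *Pcyt2* were high were those with the most hepatocyte transcripts. The mean log2 CPM of the 8 hepatocyte transcripts (*Alb*, *Apoa1*, *Apoh*, *Fgb*, *Cps1*, *Serpinc1*, *Ahsg* and *Cyp2e1*) was 10.6, 7.11 and 6.64 in WT animals 1 to 3 and 8.42, 9.73 and 8.31 in Lpcat3 KOMac mice 1 to 3. Ordered by this mean, the 6 libraries stood in the same order as by *Pemt* and as by *Chpt1*. As a description over these 6 libraries, log2 CPM of *Pemt* changed by 1.00 for each unit of the hepatocyte mean, that of *Chpt1* by 0.78 and that of *Pcyt2* by 0.59. For the other 7 genes the slope lay between -0.08 (*Chkb*) and 0.06 (*Pcyt1a* and *Ptdss1*). *Chkb* ran the other way from *Pemt*, with its highest level in WT mouse 3 and its lowest levels in Lpcat3 KOMac mouse 2 and WT mouse 1. These 3 genes were grouped after their values were seen, and fewer cells of a type and less RNA per cell cannot be told apart in such libraries. The genotypes overlapped in the hepatocyte mean, with a difference of 0.70 on the log2 scale (exact permutation test, two-sided p = 0.6).

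**Figure D3:**
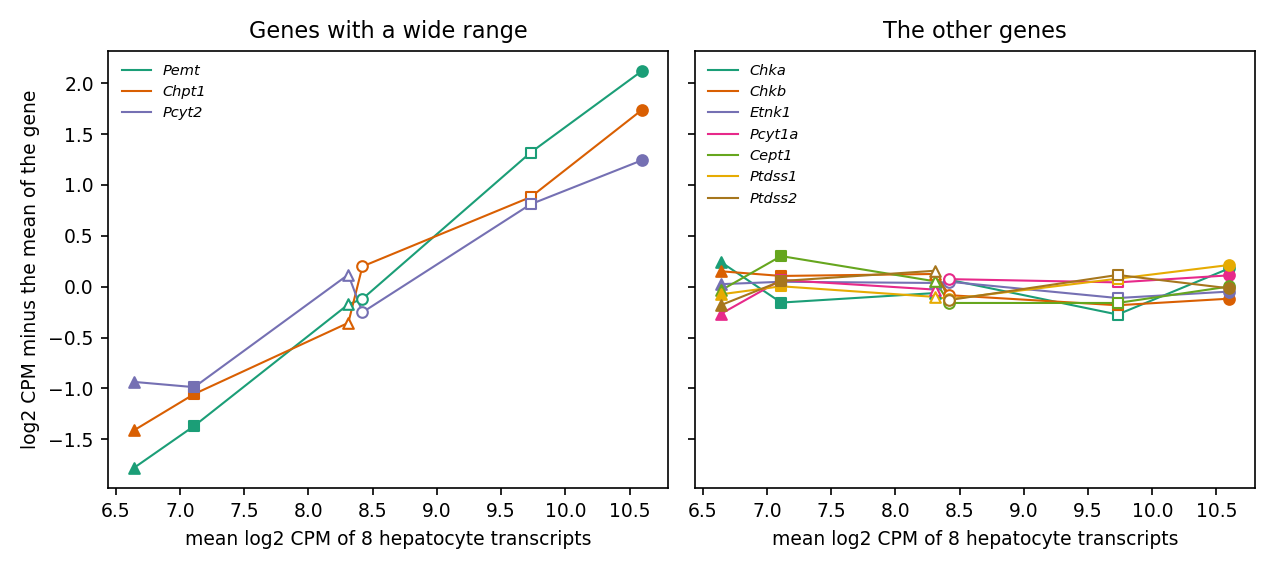
Log2 CPM of each gene minus its own mean over the 6 libraries (vertical axis) against the mean log2 CPM of 8 hepatocyte transcripts (horizontal axis), with filled symbols for WT, open symbols for Lpcat3 KOMac, and circles, squares and triangles for mice 1, 2 and 3. *Pemt*, *Chpt1* and *Pcyt2* climb from left to right with slopes of 1.00, 0.78 and 0.59, and the slopes of the other 7 genes lie between -0.08, for *Chkb*, and 0.06.

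With the hepatocyte mean as a covariate in edgeR, the log2 fold change of *Pemt* was -0.02 (standard error 0.07), against a standard error of 1.15 without it. For *Chpt1* it was -0.06 (standard error 0.13) and for *Pcyt2* 0.05 (standard error 0.15), with adjusted p-values of 0.953, 0.921 and 0.941 for the 3 genes in edgeR. Over the 6 libraries, the correlation with this covariate was 1.0 for *Pemt*, 0.991 for *Chpt1* and 0.981 for *Pcyt2*. With correlations this close, a small difference with a small standard error was to be foreseen. This fit is thus no separate test of genotype for these 3 genes. When WT mouse 1 and Lpcat3 KOMac mouse 2, the libraries richest in hepatocyte transcripts, were left out, the directions of *Pemt* and *Chpt1* turned. The log2 fold change was then 1.41 for *Pemt* (standard error 0.19, adjusted p = 0.0818), 1.18 for *Chpt1* (standard error 0.23, adjusted p = 0.148) and 0.91 for *Pcyt2* (standard error 0.14, adjusted p = 0.105), all in edgeR's quasi-likelihood test. In these 4 libraries the hepatocyte mean was likewise higher in Lpcat3 KOMac mice, by 1.49 on the log2 scale (exact permutation test, two-sided p = 0.333, as low as 2 against 2 can give). The other 7 genes had log2 fold changes between -0.19 and 0.12 in the same 4 libraries.

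The genes most like *Pemt* and *Chpt1* in their profile were found by the root mean square difference of centered log2 CPM over the 6 libraries, among all genes tested. For *Pemt* they were *Kng1* (0.05 log2 units), *Ahsg* (0.05) and *Cfi* (0.06), and *Ahsg* is itself on the hepatocyte list. *Kng1* was at 565, 53.1 and 40 CPM in WT and at 121, 314 and 124 CPM in Lpcat3 KOMac mice 1 to 3, with WT mouse 1 and Lpcat3 KOMac mouse 2 highest and WT mice 2 and 3 lowest, as for *Pemt*. For *Chpt1* they were *Cdh2* (0.09), *Aldh6a1* (0.10) and *Gcdh* (0.10). By the same measure *Chpt1* differed from *Pemt* by 0.34 and *Pcyt2* from *Pemt* by 0.57, while the other 7 genes differed from *Pemt* by 1.29 to 1.48.

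Per kilobase of exon, the order of the 10 genes was led by *Cept1*, at 72.8 ± 9.01 CPM per kilobase (SD over 6 mice). *Ptdss1* (19.3 ± 1.77), *Pcyt2* (17.6 ± 11.1), *Pcyt1a* (15.2 ± 1.37) and *Pemt* (13.3 ± 13.6) followed on the same scale. Then came *Chkb* at 9.42 ± 0.938, *Etnk1* at 8.48 ± 0.392, *Chpt1* at 8.45 ± 7.13, *Ptdss2* at 2.83 ± 0.261 and *Chka* at 1.67 ± 0.23 CPM per kilobase. *Cept1* was above *Ptdss1*, *Chkb* above *Etnk1*, and *Ptdss2* above *Chka* in 6 of 6 libraries. The order of the neighbors between them was not settled by these data: *Ptdss1* exceeded *Pcyt2* in 4 of 6 libraries, *Pcyt2* exceeded *Pcyt1a* in 3, *Pcyt1a* exceeded *Pemt* in 4, *Pemt* exceeded *Chkb* in 2, *Etnk1* exceeded *Chpt1* in 4 and *Chpt1* exceeded *Ptdss2* in 5. The same *Chkb* counts were also divided by only the 2741 exonic bases that no other gene shares, a choice made after seeing the data. The level of *Chkb* was then 20 ± 1.99 CPM per kilobase, and its place moved from 6 to 2. No reads were recounted and the lengths of the other genes were kept. This level is too high if reads in shared exons were counted for *Chkb*, which is not known.

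Enzymes that share a step were also compared within each library, where the scaling between libraries plays no part. Per kilobase, *Chpt1* was at 0.294, 0.0343 and 0.0338 of the level of *Cept1* in WT animals 1 to 3 and at 0.113, 0.18 and 0.0664 in Lpcat3 KOMac mice 1 to 3. *Cept1* was thus the more abundant transcript in every library, by the widest margin in WT mice 2 and 3. *Pcyt1a* was at 0.461, 2.1 and 1.6 times *Pcyt2* in WT mice and at 1.27, 0.592 and 0.913 times in Lpcat3 KOMac mice 1 to 3, so that the order of the pair turned between mice of 1 genotype. *Ptdss1* was between 5.71 and 8.01 times *Ptdss2* per kilobase, and *Chka* between 0.147 and 0.217 times *Chkb*, or between 0.0696 and 0.103 times with only the unshared bases of *Chkb* as its length. The mean log2 ratio differed between genotypes by 0.66 for *Chpt1* to *Cept1*, -0.39 for *Pcyt1a* to *Pcyt2*, -0.19 for *Ptdss1* to *Ptdss2* and -0.09 for *Chka* to *Chkb*. Exact permutation tests gave two-sided p-values of 0.6, 0.7, 0.3 and 0.8, each 0.8 when adjusted over the 4 ratios.

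**Figure D4:**
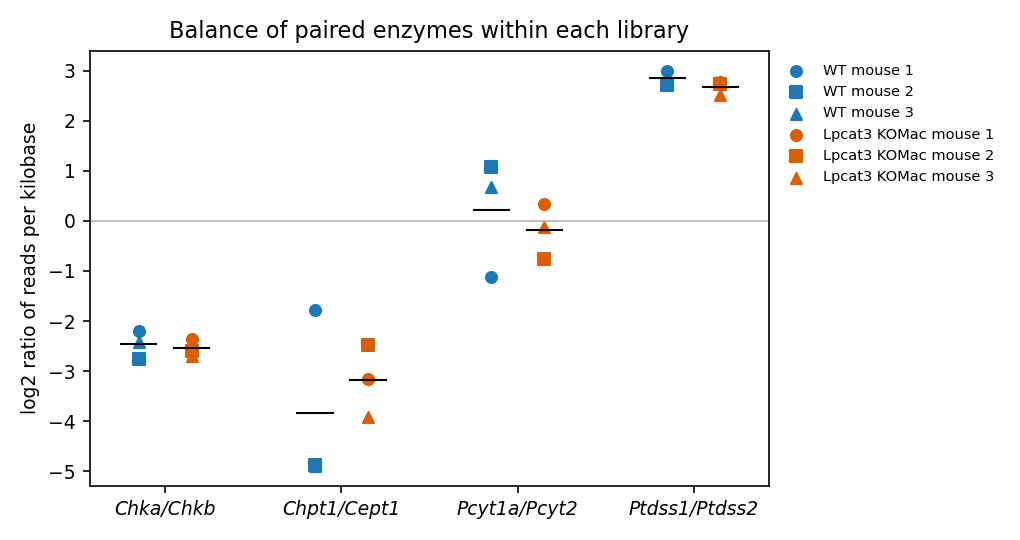
Log2 ratio of reads per kilobase between paired enzymes within each library, with 1 point per mouse (blue for WT, orange for Lpcat3 KOMac) and black bars for genotype means. The *Ptdss1* to *Ptdss2* ratio stays between 2.51 and 3, and the *Chpt1* to *Cept1* ratio spreads from -4.89 to -1.77.

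The other genes of phospholipid synthesis were taken from lists that feed, follow or run beside the 10 enzymes. They were 43 genes in all, of which 42 passed the filter. Of these, 0 had an adjusted p-value under 0.05 in edgeR and 0 an unadjusted one, beside 0.0% and 2.63% of all genes tested, and 1 (2.38%) did not overlap between genotypes, beside 7.49% of all genes tested. Among 11 further head group enzymes the log2 fold changes lay between -0.34 and 0.06. The most abundant were the CDP-diacylglycerol synthase *Cds2*, at 123 ± 4.63 CPM in WT and 123 ± 14.1 CPM in Lpcat3 KOMac cells, and the phosphatidylinositol synthase *Cdipt*, at 93.9 ± 6.8 and 88.6 ± 4.67 CPM (SD, n = 3 each). Both kept within 1.25 times from the lowest to the highest mouse, like the even genes above.

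Choline and ethanolamine supply was covered by 10 genes, of which *Slc44a4* had at most 2 counts in any library and was not tested. The other 9 had log2 fold changes between -0.15 and 0.15. The choline transporter-like gene *Slc44a2* averaged 168 ± 30.3 CPM in WT and 160 ± 27.3 CPM in Lpcat3 KOMac cells, and *Pnpla7*, a lysophospholipase that releases glycerophosphocholine, at 153 ± 13.6 and 142 ± 15 CPM (SD, n = 3 each). For diacylglycerol supply, 14 genes had log2 fold changes between -0.84 and 0.46. The acyltransferase *Agpat3* was at 194 ± 40.2 and 179 ± 22 CPM, and the phosphatidate phosphatase *Lpin2* at 170 ± 88.2 and 133 ± 27.4 CPM (SD, n = 3 each), with WT mouse 1 highest for both.

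The methyl groups that PEMT uses come from S-adenosylmethionine, and the 8 genes of its supply had log2 fold changes between -0.52 and -0.03. *Mat1a*, the synthase of the adult liver, was at 997, 95.9 and 55.1 CPM in WT and at 199, 728 and 195 CPM in Lpcat3 KOMac mice 1 to 3. *Bhmt*, which remethylates homocysteine with betaine, was at 1250, 82.5 and 61.4 CPM in WT and at 340, 462 and 171 CPM in Lpcat3 KOMac mice 1 to 3. Both had WT mouse 1 and Lpcat3 KOMac mouse 2 highest and WT mice 2 and 3 lowest, as *Pemt* did. Their direction was not settled, with log2 fold changes of -0.03 for *Mat1a* and -0.52 for *Bhmt* and a standard error of 1.23 for each. The difference of mean log2 CPM, which had the other sign for *Pemt*, was not taken for the genes of this list. The gene without overlap between genotypes was *Mat2b*, named here after its value was seen, a subunit of the synthase that is also found outside the liver. *Mat2b* was at 81.3, 77.5 and 77.8 CPM in WT and at 70.4, 74.8 and 76.1 CPM in Lpcat3 KOMac mice 1 to 3, a log2 fold change of -0.10 (standard error 0.07).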

How the data were processed

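RNA from liver F4/80-positive cells was sequenced after poly-A selection with a kit that does not mark strand, 1 library per mouse. The authors deposited raw read counts per Ensembl gene. The submitters' processing notes name Trimmomatic 0.36, STAR 2.5.2b, featureCounts of Subread 1.5.2 and GRCm38. The strand setting and the handling of reads matching several genes are not given in the sources used here, so counts of overlapping genes and close paralogs are uncertain. Symbols came from GENCODE M21 for 49056 of 49315 genes. WT and Lpcat3 KOMac counts were compared with edgeR 4.0.16 (TMM, default filter with minimum count 10, robust quasi-likelihood test, genotype as the only term). Alternatives included DESeq2 1.42.0 and limma-voom (limma 3.58.1), and the code was tested on simulated data. Log2 CPM used a prior count of 2. Replicate p-values weigh the genotype difference against the spread between mice.

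The genes described and the pathway and marker lists were chosen with earlier results of these data known. Beyond the 10 genes and *Lpcat3*, some genes were named by rule. In each pathway list these were the genes with p under 0.05 or, where there were none, the 2 with the highest mean level. The 3 nearest profiles of the 2 genes with the widest range were also named by rule. *Marco*, *Mat2b* and genes of the enzyme families were named outside these rules, after their values were seen. Marker, overlapping and untested genes were named to describe the lists and the counts. The marker lists of sinusoidal endothelial, stellate, lymphoid, neutrophil and bile duct cells are given with the other observations. Replicate numbers come from the labels alone, and the correlations of the deviations of same-numbered mice were -0.30, -0.60 and 0.36, so the mice were not treated as paired.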

Additional observations from a re-analysis of the deposited data

How the results depend on the processing

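Under 15 alternatives 0 of the 10 genes and 0 of the other pathway genes were called. Every alternative except DESeq2 called 0 of all genes tested, so 0 was the only count possible there. DESeq2 gave no adjusted p for *Pemt* and 6 of the 43 other pathway genes and so could not call them. DESeq2 called 11 genes of all, and *Lpcat3* among them (log2 fold change -1.55), where edgeR called 0. Of 150 combinations of gene and alternative, 21 turned the direction of a gene, and 4 genes kept theirs throughout. With limma-voom the log2 fold changes of *Chpt1* and *Pemt* were 0.46 and 0.49, and without the pair richest in hepatocyte transcripts 1.18 and 1.41. *Etnk1* turned to 0.07 with total counts alone and to 0.00 with the hepatocyte covariate and without that pair, and *Ptdss1* to 0.00 with total counts alone. The *Chka* to *Chkb* ratio turned to 0.07 without that pair. The place of *Chkb* by level moved to 2 with its unshared length. The cause was not tested. With the replicate block, which the numbers do not justify as pairs (mean correlation -0.18), *Chpt1* was at 0.55 and *Pemt* at 0.88, and 0 genes were called.

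With each mouse left out in turn, 0 genes were called and *Lpcat3* ranged from -1.85 to -1.39. *Pemt* ranged from -0.90 to 2.08, *Chpt1* from -0.60 to 1.56, *Pcyt2* from -0.24 to 1.26, *Pcyt1a* from -0.06 to 0.12 and *Etnk1* from -0.05 to 0.05, while the remaining 5 kept their direction. Without WT mouse 1, *Pemt* turned to 2.08 and *Chpt1* to 1.56, and *Pcyt2* was at 1.26. Without Lpcat3 KOMac mouse 3 *Pemt* turned to 0.04 and *Chpt1* to 0.11, and without Lpcat3 KOMac mouse 1 *Pemt* turned to 0.03. *Pcyt2* turned to between -0.24 and -0.23 without WT mouse 2, WT mouse 3 or Lpcat3 KOMac mouse 2. *Pcyt1a* turned without WT mouse 3, and *Etnk1* without WT mouse 2 or Lpcat3 KOMac mouse 2. The ratios ranged from -0.24 to 0.04 for *Chka* to *Chkb* and from -1.06 to 0.04 for *Pcyt1a* to *Pcyt2*. They ranged from 0.14 to 1.70 for *Chpt1* to *Cept1* and from -0.27 to -0.11 for *Ptdss1* to *Ptdss2*. The *Chka* to *Chkb* ratio turned without WT mouse 1 and the *Pcyt1a* to *Pcyt2* ratio without WT mouse 2. The difference in the hepatocyte mean ranged from -0.03, without WT mouse 3, to 1.95, without WT mouse 1.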

Other observations

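In some families of related enzymes, named here after their values were seen, 1 member ranged widely over the 6 libraries and another ranged less. The ethanolamine kinase *Etnk2* was at 96.7, 8.6 and 4.13 CPM in WT animals 1 to 3 and at 15, 55.5 and 15.9 CPM in Lpcat3 KOMac mice 1 to 3, a 23.4-fold range, where *Etnk1* ranged 1.13-fold. The S-adenosylmethionine synthase *Mat1a* ranged 18.1-fold, and *Mat2a*, its counterpart that is also found outside the liver, 1.42-fold. In glycerolipid synthesis *Agpat2* ranged 7.8-fold and *Agpat1* 1.32-fold. *Gpam* ranged 7.38-fold, while *Gpat3* at 2.86-fold and *Gpat4* at 2.05-fold ranged less but still above the median of 1.61 for all genes tested. Other families showed no such contrast: both members ranged 1.26-fold for *Ptdss1* and *Ptdss2*, 1.43-fold and 1.26-fold for *Chka* and *Chkb*, 1.3-fold and 1.48-fold for *Pcyt1a* and *Pcyt1b*, and 1.56-fold and 1.25-fold for *Cds1* and *Cds2*, while *Bhmt* and *Bhmt2* ranged widely alike, at 20.3-fold and 14.1-fold. In each of *Etnk2*, *Mat1a*, *Agpat2* and *Gpam*, WT mouse 1 was highest, Lpcat3 KOMac mouse 2 second and WT mouse 3 lowest.

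Markers of other liver cells were less uneven than the hepatocyte sum, which ranged 12.4-fold. The summed level of 5 sinusoidal endothelial markers lay between 836 and 973 CPM in WT and between 951 and 1170 CPM in Lpcat3 KOMac mice. For 5 stellate cell markers it lay between 52 and 142 CPM in WT and between 103 and 187 CPM in Lpcat3 KOMac mice. For 5 lymphocyte markers it lay between 13.7 and 24.7 CPM in WT and between 17.4 and 19.6 CPM in Lpcat3 KOMac mice, and for 4 neutrophil markers between 80.3 and 157 CPM and between 78.7 and 141 CPM. The 4 bile duct markers, of which 3 passed the filter on low counts, were low throughout. Their sums did not overlap, at 0.319 to 0.678 CPM in WT and 0.895 to 1.14 CPM in Lpcat3 KOMac mice. Among single genes tested, 7.49% did not overlap between genotypes (2.29% higher in Lpcat3 KOMac cells). The mean log2 CPM of the bile duct markers differed by 0.73 (exact permutation test, two-sided p = 0.1, as low as 3 against 3 can give). No other marker list had as low a p-value in this test, and the p-values were not adjusted over the lists.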
